A study of Mus musculus with 15 samples.

Results

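Intracerebral haemorrhage (ICH) was compared with sham surgery in the mouse basal ganglia on day 3, across all genes with enough counts to test. The comparison used 10 of the 15 libraries of the study, 5 from ICH mice and 5 from sham mice, with 1 library per mouse. Mice of both groups are labelled wild type and were gavaged daily with distilled water. Their tissue came from the basal ganglia on the operated side, after saline perfusion, and polyadenylated RNA was sequenced. The sources used here do not give the strain, age or sex of the mice, nor how the haemorrhage was made or what sham surgery involved. The other 5 libraries came from ICH mice that were also gavaged with Nao Yi Kang decoction (NYKD, daily doses of 5.79 g/kg over 3 days). They entered the filter on low counts, the scaling between libraries and the model's estimate of the spread between mice, and are not compared here. Of 54532 genes in the table, 18052 passed the filter on low counts and were tested.

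In ICH, blood escapes into the brain tissue and sets free haemoglobin, iron and clotting proteins next to neurons and glia. Over the first days, resident microglia and astrocytes react and leukocytes enter from the blood, while neurons around the clot are injured or lost. The basal ganglia are a frequent site of such bleeds, and their main part, the striatum, consists largely of GABA-releasing projection neurons. The genes described here lie mostly outside the glial and inflammatory markers usually read in this injury: secreted proteins, receptors, ion channels, carriers, metabolic enzymes and transcription factors.

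Library totals ran from 13539203 counts (ICH replicate 4) to 19909140 (sham replicate 5). All 16 striatal projection neuron markers were detected in both groups, but the libraries differed in their level. The summed level of these markers was 1730 CPM (counts scaled to a common library size) in sham replicate 1 and 7973 to 8598 in the other sham libraries. In ICH replicates 1 to 5 it was 2107, 2248, 1346, 7471 and 5851 CPM. Thalamic and pallidal markers were highest in sham replicate 1 (1578 CPM summed over 10 genes, against 313.4 to 657.6 in the other sham libraries). Choroid plexus and ependyma markers ran from 112.2 to 2630 CPM in sham and from 37.74 to 6040 CPM after ICH. Neutrophil markers summed to 16.78 to 59.08 CPM in sham, 210.5 to 364.2 CPM in 4 ICH libraries and 2230 CPM in ICH replicate 4. The neutrophil list shares a gene with the astrocyte marker list, so this sum is not specific to neutrophils. ICH replicate 4 and sham replicate 1 thus stood apart, and a difference in dissected tissue cannot be told apart from a difference in response in these libraries. Calls are therefore given with all 10 libraries and without ICH replicate 4. The named genes kept their calls when each of the 10 libraries was left out in turn, unless a library is named beside them.

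The haemorrhage was accompanied by more genes raised than lowered. Expression was given as CPM scaled by the trimmed mean of M-values (TMM), and a gene was called raised or lowered at a Benjamini-Hochberg adjusted p under 0.05 in edgeR's quasi-likelihood F-test. Of the tested genes, 2236 were raised (12.4%) and 826 were lowered (4.58%), 17% in all. Raised genes made up 73.0% of the calls with TMM, 64.2% when relative log expression (RLE) size factors replaced it and 83.4% when only library totals were used. The median log2 fold change was 1.24 among raised genes, -0.71 among lowered genes and 0.05 among all tested genes. At least 2-fold changes were called for 1402 raised (7.77%) and 151 lowered genes (0.836%), 8.6% in all. All 5 ICH libraries lay above all 5 sham libraries for 1450 tested genes (8.03%) and below them for 587 (3.25%). At least 4-fold changes were called for 517 raised and 6 lowered genes. Protein-coding genes held 2118 of the raised and 774 of the lowered calls among 15083 tested (14% and 5.13%). ICH replicate 3 had the highest ICH value for 1045 of the raised genes and for 4079 of all tested genes. ICH replicate 4 had the lowest for 794 of the raised and 5048 of all tested genes. It also had the highest for 611 of the raised and 4726 of all tested genes.

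Without ICH replicate 4, 18307 genes were tested, of which 2326 were raised (12.7%) and 944 lowered (5.16%). At least 2-fold changes were then called for 1416 raised (7.73%) and 213 lowered genes (1.16%), 8.9% in all. The 2 analyses shared 2653 called genes, none with opposite sign. Leaving this library out removed the calls of 409 genes, 237 of them raised, and added the calls of 617 others, 327 of them raised. For 101 raised genes the log2 fold change was at least 1.5 times as large with ICH replicate 4 as without it. The 826 lowered genes became 496 when ICH replicate 3 was left out and 504 when sham replicate 3 was left out.

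**Figure D1:**
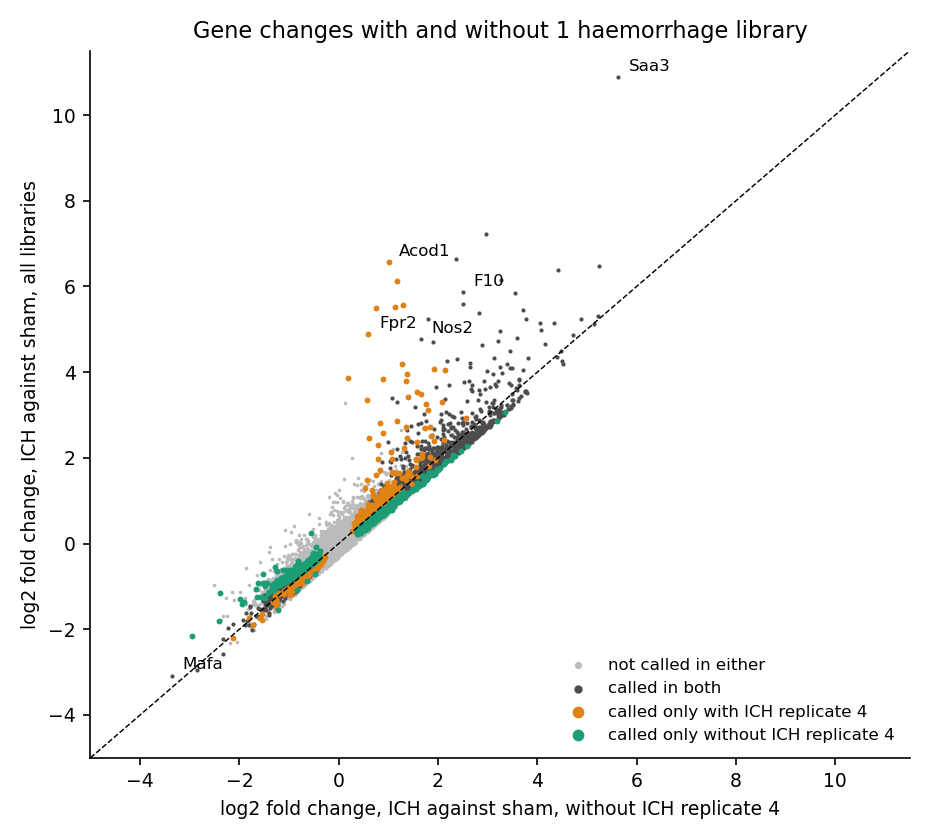
Log2 fold change of each gene tested in both analyses, ICH against sham, with all libraries (vertical axis) and without ICH replicate 4 (horizontal axis), coloured by whether the gene was called in both, in 1 or in neither analysis; the dashed line marks equal values. Mafa lies near the line (-3.08 and -3.36), whereas Saa3 reads 10.88 with the library and 5.63 without it, and Acod1 6.56 and 1.01.

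The raised genes with the smallest p values outside the marker lists were Glipr2, Igfbp3 and Anxa2. Glipr2 (ENSMUSG00000028480) encodes a Golgi-associated protein of the pathogenesis-related family. It read 7.77, 8.4, 5.96, 7.76 and 8.25 CPM in sham and 28.2, 31, 37.9, 41.5 and 35 CPM after ICH. The groups did not overlap, and the lowest ICH library was above the highest sham library by more than the spread in sham. Its log2 fold change was 2.18 ± 0.16, adjusted p = 1.96e-06. Igfbp3 (ENSMUSG00000020427) encodes a secreted carrier of insulin-like growth factors, and Anxa2 (ENSMUSG00000032231) encodes annexin A2, which binds membranes and plasminogen at the cell surface. Anxa2 read 24.4, 23.7, 14.7, 15.8 and 11.9 CPM in sham and 99.5, 123, 136, 101 and 77.6 CPM after ICH. Each ICH library was above every sham library, and the log2 fold change was 2.57 ± 0.23, adjusted p = 1.08e-05. Igfbp3 values follow with the other secreted proteins.

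The start regions of these genes are shown because these genes had the smallest p values among raised genes outside the marker lists. Each sequence runs 5′ to 3′ on the gene's strand, from 250 bases before the start to 50 after it (RefSeq, GRCm38.p6). Capitals mark a CArG box, the motif bound by serum response factor, and an AP-1 motif (TGANTCA). A TEAD motif (GGAATG) was also searched, on both strands, and neither it nor the others matched in Igfbp3.
Glipr2, chr4:43957452-43957751, plus strand: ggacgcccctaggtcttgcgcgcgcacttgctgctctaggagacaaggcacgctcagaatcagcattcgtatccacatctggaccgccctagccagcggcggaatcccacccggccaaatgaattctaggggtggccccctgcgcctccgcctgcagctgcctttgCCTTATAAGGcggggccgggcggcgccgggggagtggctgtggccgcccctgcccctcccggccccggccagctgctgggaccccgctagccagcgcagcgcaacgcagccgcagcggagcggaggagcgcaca
Igfbp3, chr11:7213874-7214173, minus strand: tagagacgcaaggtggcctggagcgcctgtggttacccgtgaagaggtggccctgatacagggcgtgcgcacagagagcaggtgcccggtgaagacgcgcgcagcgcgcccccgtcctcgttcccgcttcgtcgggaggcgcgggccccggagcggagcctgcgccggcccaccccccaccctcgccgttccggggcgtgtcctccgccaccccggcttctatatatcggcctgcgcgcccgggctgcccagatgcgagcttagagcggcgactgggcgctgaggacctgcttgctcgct
Anxa2, chr9:69453433-69453732, plus strand: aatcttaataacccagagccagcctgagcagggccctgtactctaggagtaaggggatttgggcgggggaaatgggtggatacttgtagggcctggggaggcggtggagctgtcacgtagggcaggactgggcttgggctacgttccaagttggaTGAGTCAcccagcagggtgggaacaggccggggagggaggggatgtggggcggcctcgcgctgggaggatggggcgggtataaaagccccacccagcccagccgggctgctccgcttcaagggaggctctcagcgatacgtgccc

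The CArG box of Glipr2 begins 84 bases before the start, and the AP-1 motif of Anxa2 begins 95 bases before it. An AP-1 motif was in 7.93% of all 27025 promoter windows of this length and in 5.18% of the 12646 that belong to tested genes. It was in 7.81% of 1678 windows of raised genes and in 3.64% of 604 windows of lowered genes. The TEAD motif was in 14.6% of all windows and 12.2% of those of tested genes, and in 12.9% and 11.8% for raised and lowered genes. The CArG box was in 1.57% of all windows, 1.31% of those of tested genes, 1.25% of those of raised genes and 0.828% of those of lowered genes. These shares describe letters in the windows, and whether a factor binds there was not measured.

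Genes for secreted proteins changed in both directions. Of 266 tested ligand genes in 12 groups, 28 were raised (10.5%) and 20 lowered (7.52%), with a median log2 fold change of -0.11, against 12.4%, 4.58% and 0.05 over all tested genes. Members of this and all later groups are protein-coding, and of tested protein-coding genes 14% were raised and 5.13% lowered. Raised and lowered ligands numbered 35 and 16 with library totals. Matricellular proteins, which sit in the matrix and alter cell adhesion, and carriers of growth factors and lipids were among the raised genes. Astrocyte markers moved with them: 19 of 31 were raised and 1 was lowered, and their summed level was 6838 to 8446 CPM in sham and 11960 to 14270 CPM after ICH. Of 13 tested pericyte, smooth muscle and fibroblast markers, 4 were raised (7 without ICH replicate 4, and 2 without ICH replicate 3 or without sham replicate 2 or 3), and their sum was 398.6 to 552.4 CPM in sham and 526.5 to 1585 CPM after ICH. No marker of either list was at 0, and the part of these cells in the ligand changes was not tested. Of 21 tested genes of the CCN, thrombospondin, tenascin and SPARC families, 7 were raised and 3 lowered. Of 23 angiopoietin-like, adipokine and lipoprotein genes, 5 were raised and 1 was lowered. Of 37 semaphorin, ephrin, netrin and slit genes, which guide axons, none was raised and 6 were lowered, or 3 without sham replicate 5. Where a group had 1 to 3 called members in a direction, that count often changed when a single library was left out.

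Igfbp3 read 17.1, 19.2, 12.9, 22.8 and 18.6 CPM in sham and 64.7, 74.7, 114, 85.8 and 71.7 CPM after ICH. All ICH libraries exceeded all sham libraries, and the log2 fold change was 2.18 ± 0.19, adjusted p = 8.99e-06. Thbs1, which encodes thrombospondin-1, a matrix protein that activates transforming growth factor beta, read 21.5, 13.4, 6.4, 19.1 and 8.48 CPM in sham and 115, 91.8, 192, 181 and 48 CPM after ICH. ICH replicate 5 was the lowest of its group and still above each sham library, and the log2 fold change was 3.19 ± 0.43, adjusted p = 0.00023. Fgf2, basic fibroblast growth factor, read 12.4, 15, 13.6, 11.3 and 14 CPM in sham and 47.2, 36.8, 68, 61.8 and 33.4 CPM after ICH. Sham libraries lay close together and each ICH library was higher than all of them, and its log2 fold change was 1.90 ± 0.21, adjusted p = 3.47e-05. Apod, a lipid carrier of the lipocalin family, read 539, 702, 415, 294 and 321 CPM in sham and 1092, 1264, 1421, 1949 and 2573 CPM after ICH. ICH replicate 5 was the highest and no library overlapped with sham, and the log2 fold change was 1.87 ± 0.32, adjusted p = 0.000848.

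Other secreted products were raised over a range of levels. Ccn1, a matricellular protein, rose by 2.53 ± 0.28, adjusted p = 4e-05, the glycoprotein gene Tnc (tenascin C) by 2.52 ± 0.41, adjusted p = 0.000798, and Tgfbi, a matrix protein induced by transforming growth factor beta, by 2.66 ± 0.43, adjusted p = 0.000781 on the log2 scale. Igfbp7, a binding protein for insulin-like growth factors, rose by 1.54 ± 0.26, adjusted p = 0.000848, and Angptl4, an inhibitor of lipoprotein lipase, by 1.61 ± 0.27, adjusted p = 0.000854. Pros1, which encodes protein S, an anticoagulant and a ligand of TAM receptors, rose by 1.73 ± 0.22, adjusted p = 0.000111. Hbegf, a ligand of the EGF receptor, rose by 1.05 ± 0.16, adjusted p = 0.000491 and Angpt2, an antagonist of the endothelial receptor Tie2, by 1.67 ± 0.29, adjusted p = 0.00092. Edn1, the precursor of the vasoconstrictor endothelin-1, rose by 1.05 ± 0.27, adjusted p = 0.014. The cytokine gene Lif differed in size by library. It read 0.863, 0.857, 0.833, 0.658 and 0.929 CPM in sham and 4.92, 5.31, 4.19, 37.7 and 4.79 CPM after ICH, so ICH replicate 4 was far above the other 4 ICH libraries, which themselves lay above all sham libraries. Its log2 fold change was 3.76 ± 0.61, adjusted p = 0.000711 with that library and 2.52, adjusted p = 2.79e-05 without it. Clcf1, a related cytokine, rose by 2.81 ± 0.52, adjusted p = 0.00185.

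Lowered ligand genes included binding proteins of morphogens. The summed level of 13 pan-neuronal markers was also lower, at 5827 to 7182 CPM in sham and 4165 to 4686 CPM after ICH. Striatal markers differed between libraries as given above. The part of neuronal or striatal content in the lowered ligand genes was not tested. Hhip, whose protein binds and blocks hedgehog ligands, read 24.7, 28, 24.7, 28 and 28.6 CPM in sham and 14.1, 9, 6.31, 6.86 and 9.33 CPM after ICH. Every ICH library was below every sham library, and the log2 fold change was -1.56 ± 0.21, adjusted p = 0.000195. Gdf10, a secreted member of the BMP and GDF family, read 7.09, 11.2, 9.61, 11.4 and 11 CPM in sham and 2.88, 1.99, 0.885, 2.47 and 5.15 CPM after ICH. ICH replicate 3 was lowest and ICH replicate 5 highest of its group, and none reached the sham range. The log2 fold change of Gdf10 was -1.91 ± 0.38, adjusted p = 0.00236. Bmper, a secreted BMP-binding protein, fell (-1.04 ± 0.20, adjusted p = 0.00192). Lgi2, a secreted protein of the leucine-rich glioma-inactivated family, read 131, 136, 121, 135 and 95.9 CPM in sham and 60.9, 52, 47.6, 46.6 and 59.6 CPM after ICH. The groups did not overlap, and the log2 fold change was -1.21 ± 0.20, adjusted p = 0.000622. C1qtnf4, a secreted C1q-like protein, changed by -1.11 ± 0.23, adjusted p = 0.00333, the ephrin gene Efnb3 by -0.70 ± 0.14, adjusted p = 0.00236, the semaphorin gene Sema7a by -0.56 ± 0.14, adjusted p = 0.0104 and the neuregulin gene Nrg3, a ligand of ErbB4, by -1.01 ± 0.24, adjusted p = 0.00866. Most neuropeptide precursors gave no call: of 44 tested, 2 were raised and 2 lowered. Without ICH replicate 2 or 4 the lowered count was 5 or 4, without sham replicate 3 or 5 it was 1, and without ICH replicate 3 it was 0. Of 31 Wnt ligands and secreted antagonists, the 1 call, Wnt10b (2.81 ± 0.90, adjusted p = 0.0421), was lost without ICH replicate 4 (adjusted p = 0.347). Omitting sham replicate 1, 2, 3 or 5 also ended that call (adjusted p up to 0.101).

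**Figure D2:**
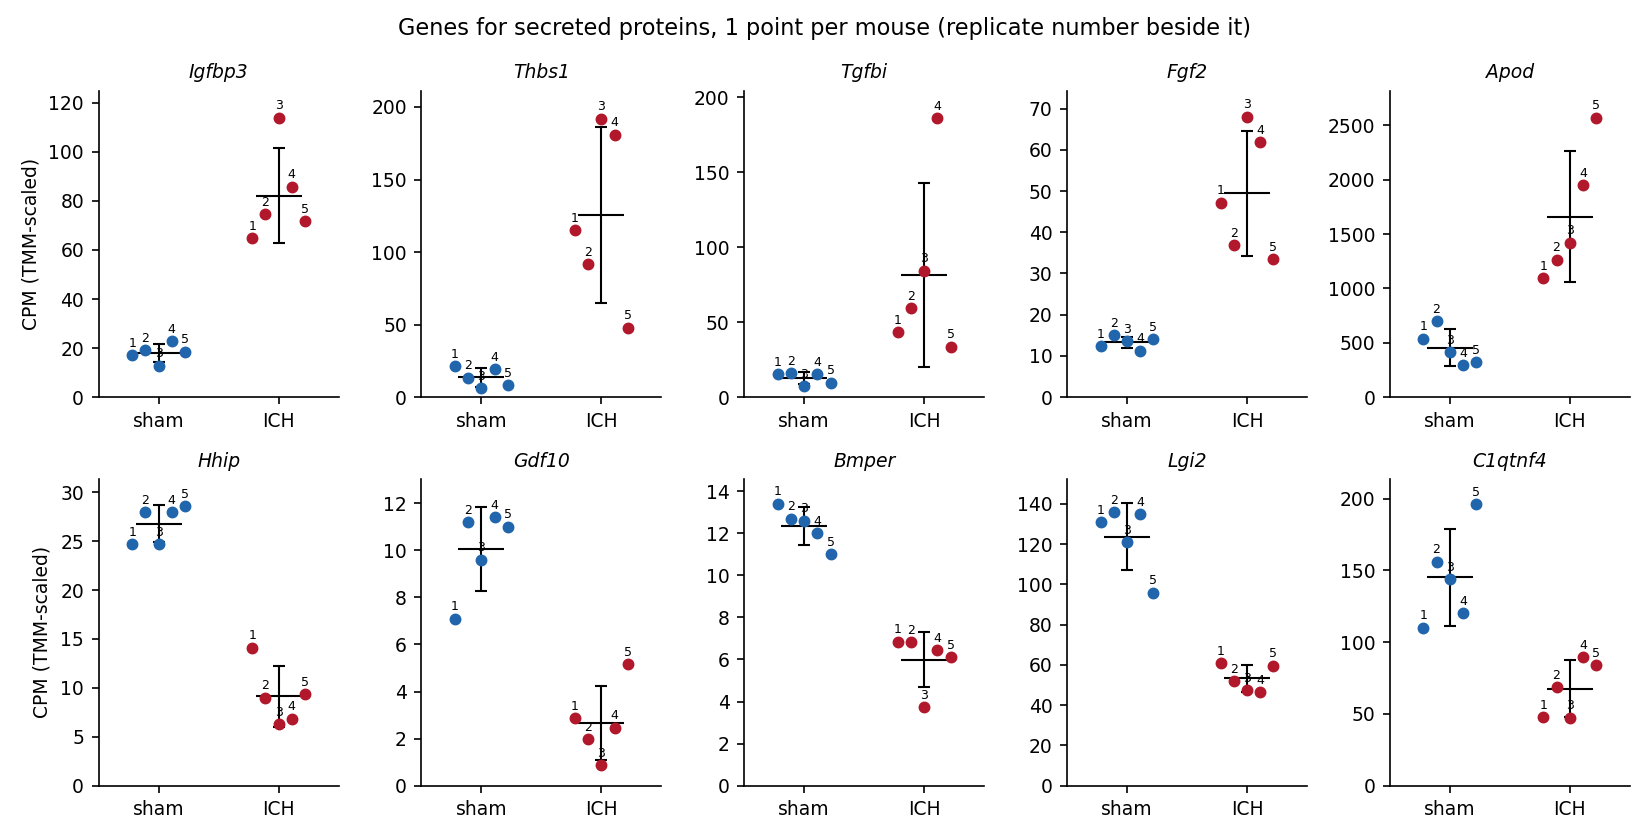
Expression of 10 genes for secreted proteins in TMM-scaled CPM (vertical axes from 0), 1 point per mouse with its replicate number, sham in blue and ICH in red; the horizontal line is the mean and the bar 1 SD (n = 5). In all 10 panels the 5 ICH values lie on 1 side of the 5 sham values. The 10 genes were picked with their values known, so this separation was fixed by that choice. Over all tested genes, ICH lay above sham for 8.03% and below for 3.25%. The values of Hhip are 6.31 to 14.1 CPM after ICH and 24.7 to 28.6 CPM in sham.

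Receptor genes were raised more often than the tested genes at large. Of 474 tested receptor genes in 21 groups, 120 were raised (25.3%) and 31 lowered (6.54%), with a median log2 fold change of 0.10. Receptors of cytokines, TNF ligands, matrix and lipid mediators held the higher shares of raised genes. Microglia and macrophage markers moved with them: 38 of 46 tested were raised, and their summed level was 3528 to 6495 CPM in sham and 8102 to 16100 CPM after ICH. No marker of that list was at 0 in either group, and the part of these cells in the receptor changes was not tested. In whole tissue, a change in the number of cells of a type and a change in RNA per cell cannot be told apart.

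Of 24 TNF receptor genes, 12 were raised and none lowered, with a median log2 fold change of 1.12. Tnfrsf1a (ENSMUSG00000030341), the widely expressed receptor of TNF, read 29.3, 26.5, 16.5, 19.3 and 12.1 CPM in sham and 69, 90.3, 92.1, 93.4 and 79.4 CPM after ICH. The lowest ICH library was above the highest sham library, and the log2 fold change was 2.03 ± 0.22, adjusted p = 3.59e-05. Tnfrsf1b, the second TNF receptor, rose by 2.67 ± 0.44, adjusted p = 0.000851, with 167 CPM in ICH replicate 4 and 27.7 to 43.7 CPM in the other ICH libraries. Without that library its log2 fold change was 1.91, adjusted p = 4.35e-05. The death receptor genes Tnfrsf10b and Fas rose by 2.25 ± 0.38, adjusted p = 0.000746 and 1.81 ± 0.31, adjusted p = 0.00094, and Ltbr, the lymphotoxin beta receptor, by 1.11 ± 0.21, adjusted p = 0.00165. The ligand gene Tnf itself was called with all libraries (log2 fold change 4.20 ± 1.24, adjusted p = 0.0302) but not without ICH replicate 4 (1.28, adjusted p = 0.253), where it read 31.1 CPM against 0.182 to 2.35 CPM in the other ICH libraries. Omitting sham replicate 2, 3, 4 or 5 also ended the call of Tnf (adjusted p from 0.0544 to 0.0736).

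Of 43 interleukin and class I or II cytokine receptor genes, 26 were raised and 1 lowered, with a median of 1.01. Il4ra, the alpha chain of the interleukin-4 receptor, rose by 2.40 ± 0.37, adjusted p = 0.000491, and by 1.92, adjusted p = 0.000157 without ICH replicate 4. The subunit genes Il10rb and Il1r1 rose by 1.74 ± 0.23, adjusted p = 0.000144 and 1.54 ± 0.24, adjusted p = 0.000421. The interferon receptor genes Ifnar2 and Ifngr1 changed less, by 0.98 ± 0.15, adjusted p = 0.000495 and 0.84 ± 0.14, adjusted p = 0.000587, with sham libraries between 13.8 and 16.5 CPM for Ifnar2. The lowered member was Cntfr, the receptor subunit for ciliary neurotrophic factor. It read 103, 107, 101, 94.7 and 112 CPM in sham and 50.7, 78.7, 48.4, 38.5 and 76.8 CPM after ICH, with no overlap, and its log2 fold change was -0.82 ± 0.19, adjusted p = 0.00697.

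Many receptors for matrix, debris and lipid mediators also rose. Of 25 integrin subunit genes 12 were raised and none lowered, and of 37 scavenger receptor and C-type lectin genes 19 were raised and 1 lowered. Without sham replicate 3, 8 integrin genes were raised. Itgb2, the shared beta chain of leukocyte integrins, rose by 2.22 ± 0.25, adjusted p = 4.84e-05 and Itgb3 by 1.43 ± 0.27, adjusted p = 0.00166. Itga6, a laminin receptor chain, read 55.7, 45.6, 40.2, 54.9 and 33.3 CPM in sham and 165, 102, 166, 61.7 and 84.9 CPM after ICH. The lowest ICH library, replicate 4, was only just above the sham range, and the log2 fold change was 1.33 ± 0.25, adjusted p = 0.00173. Stab1, a scavenger receptor that clears modified lipoproteins and matrix fragments, rose by 2.40 ± 0.30, adjusted p = 0.000111 and Cd93, a C-type lectin of endothelium and myeloid cells, by 2.37 ± 0.30, adjusted p = 0.000116. Of 20 receptors of lysophospholipids, bile acids and fatty acids, 8 were raised and none lowered, and 5 were raised without sham replicate 3. P2ry6, which senses the nucleotide UDP, rose by 2.02 ± 0.23, adjusted p = 5.11e-05 and the chemerin receptor gene Cmklr1 by 1.65 ± 0.24, adjusted p = 0.000297. Hcar2, the receptor for hydroxybutyrate and niacin, read 1.29, 1.89, 0.128, 1.18 and 0.0581 CPM in sham and 6.45, 6.4, 6.9, 62.5 and 3.09 CPM after ICH. Its log2 fold change was 4.21 ± 0.89, adjusted p = 0.00467 with ICH replicate 4 and 2.64, adjusted p = 0.00423 without it. Plaur, the urokinase receptor, rose by 2.68 ± 0.43, adjusted p = 0.000568.

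Growth factor and guidance receptors changed singly. Of 43 growth factor receptor tyrosine kinase genes, 8 were raised and 2 lowered, and the raised count was 4 or 5 on omission of ICH replicate 3, or of sham replicate 1, 2 or 3. It was 14 with library totals and 6 under RLE scaling, which gave 3 lowered. Fgfrl1, a receptor that binds fibroblast growth factors without a kinase domain, read 18.6, 22.5, 15.3, 15.8 and 14.3 CPM in sham and 54.3, 58.6, 69.1, 52.7 and 42.1 CPM after ICH. The groups were well apart, and the log2 fold change was 1.68 ± 0.18, adjusted p = 3.47e-05. Axl, a TAM receptor, rose by 0.66 ± 0.13, adjusted p = 0.0028 and the ephrin receptor gene Epha2 by 1.74 ± 0.34, adjusted p = 0.00245, whereas Ephb1, another ephrin receptor, fell (-0.89 ± 0.18, adjusted p = 0.00294). Plxnb2, a plexin, rose by 1.07 ± 0.18, adjusted p = 0.000916, and Unc5b, a netrin receptor, fell (-0.91 ± 0.21, adjusted p = 0.00677, and -0.72, adjusted p = 0.000755 without ICH replicate 4). Fzd2, a Wnt receptor, fell (-1.39 ± 0.24, adjusted p = 0.000888). Eng and Tgfbr2, receptors of the TGF-beta family, rose by 0.84 ± 0.14, adjusted p = 0.000861 and 1.12 ± 0.19, adjusted p = 0.000887.

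Receptor genes for serotonin, noradrenaline, acetylcholine, dopamine, opioids and cannabinoids were called at the share of all tested genes (17%), but their medians were lower. Of 47 tested, nicotinic subunits included, 4 were raised and 4 lowered. Among all tested genes, raised calls (12.4%) outnumbered lowered ones (4.58%), and the median log2 fold change was 0.05. The median was -0.57 for serotonin, -0.74 for adrenergic, -0.64 for cholinergic, -0.91 for dopamine and -0.77 for opioid and cannabinoid receptors. With sham replicate 2, 3 or 5 dropped, no adrenergic or cholinergic receptor was raised. With sham replicate 1 dropped, no adrenergic receptor was lowered. Htr2a, the serotonin 2A receptor, fell (-1.40 ± 0.38, adjusted p = 0.0186) and Htr2b, the 2B receptor, rose (2.12 ± 0.50, adjusted p = 0.00758). The muscarinic receptor Chrm2 read 35.3, 23.3, 20.7, 24.7 and 31.8 CPM in sham and 15.5, 14.6, 12.8, 9.89 and 14.4 CPM after ICH, with no overlap between groups, and changed by -1.01 ± 0.21, adjusted p = 0.00325. Cnr2, the cannabinoid receptor of immune cells, rose by 1.75 ± 0.34, adjusted p = 0.00234. None of 4 dopamine receptor genes was called. Drd2 read 38, 189, 192, 206 and 235 CPM in sham and 59.1, 60.7, 36.9, 150 and 129 CPM after ICH, where sham replicate 1 lay within the ICH range and the ICH libraries differed among themselves (log2 fold change -0.98 ± 0.55, adjusted p = 0.24). The cannabinoid receptor gene Cnr1 gave -1.19 ± 0.45, adjusted p = 0.0784 with all libraries and among single omissions was called only when sham replicate 1 was left out (adjusted p = 0.0189). Of 59 orphan G protein-coupled receptor genes, 9 were raised and 11 lowered, or 11 and 6 with library totals. The raised count was 5 on omission of ICH replicate 3, or of sham replicate 5, and the lowered count was 5 to 7 on omission of ICH replicate 3 or 5, or of sham replicate 2, 3 or 5. Lowered orphan receptors included Gpr162 (-0.90 ± 0.19, adjusted p = 0.00337) and Gpr3, which raises cyclic AMP in neurons (-1.30 ± 0.27, adjusted p = 0.00344).

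Ligand and receptor genes of listed pairs were set side by side, and whether they changed together more or less often than unrelated genes was not tested. Over all tested genes, 12.4% were raised and 4.58% lowered. Of 75 pairs from a list written by hand, 72 had both genes tested, 5 had both raised, none had both lowered, 3 had opposite calls and 42 had no call on either side. Hhip stands on that list as a ligand, although its protein blocks hedgehog ligands. The 5 pairs with both raised were Tgfb1 with Tgfbr2, Plau with Plaur, Pros1 with Mertk, Adm with Ramp2, and Tnfsf9 with Tnfrsf9. The other receptor gene listed for Adm was not called with all libraries (0.68 ± 0.28, adjusted p = 0.109) and was raised without ICH replicate 4. The other receptor gene listed for Tgfb1 was likewise not called with all libraries (0.38 ± 0.22, adjusted p = 0.258) and was raised without ICH replicate 4. Without ICH replicate 4, 8 pairs had both genes raised. Tgfb1 and Tgfbr2 kept their calls in each single omission, with log2 fold changes of 1.53 ± 0.23, adjusted p = 0.000332 and 1.12 ± 0.19, adjusted p = 0.000887. The others each had a member near the threshold. Plau (adjusted p = 0.0451) kept its call only on omission of ICH replicate 4 or 5, and Mertk (adjusted p = 0.0499) only on omission of ICH replicate 2 or 4, or of sham replicate 4. Ramp2 was no longer called on omission of ICH replicate 2 or 3, or of sham replicate 2, 3, 4 or 5. For Adm this held on omission of ICH replicate 3, or of sham replicate 4, and for Tnfsf9 on omission of ICH replicate 2 or 4, or of sham replicate 2, 4 or 5. In the opposite pairs, Clcf1 was raised and Cntfr lowered, Cx3cl1 lowered (-1.01 ± 0.28, adjusted p = 0.019) and its microglial receptor Cx3cr1 raised (1.17 ± 0.31, adjusted p = 0.0154), and Sema3a lowered and Nrp1 raised. Cx3cr1 lost its call without sham replicate 5 (adjusted p = 0.0521). Sema3a had an adjusted p of 0.0495 and lost its call on omission of ICH replicate 2, 3 or 4, or of sham replicate 2, 3, 4 or 5 (adjusted p up to 0.121, and 0.0705 for ICH replicate 4). Nrp1 lost its call on omission of ICH replicate 1 or 3, or of sham replicate 2 or 3 (adjusted p up to 0.0695).

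**Figure D3:**
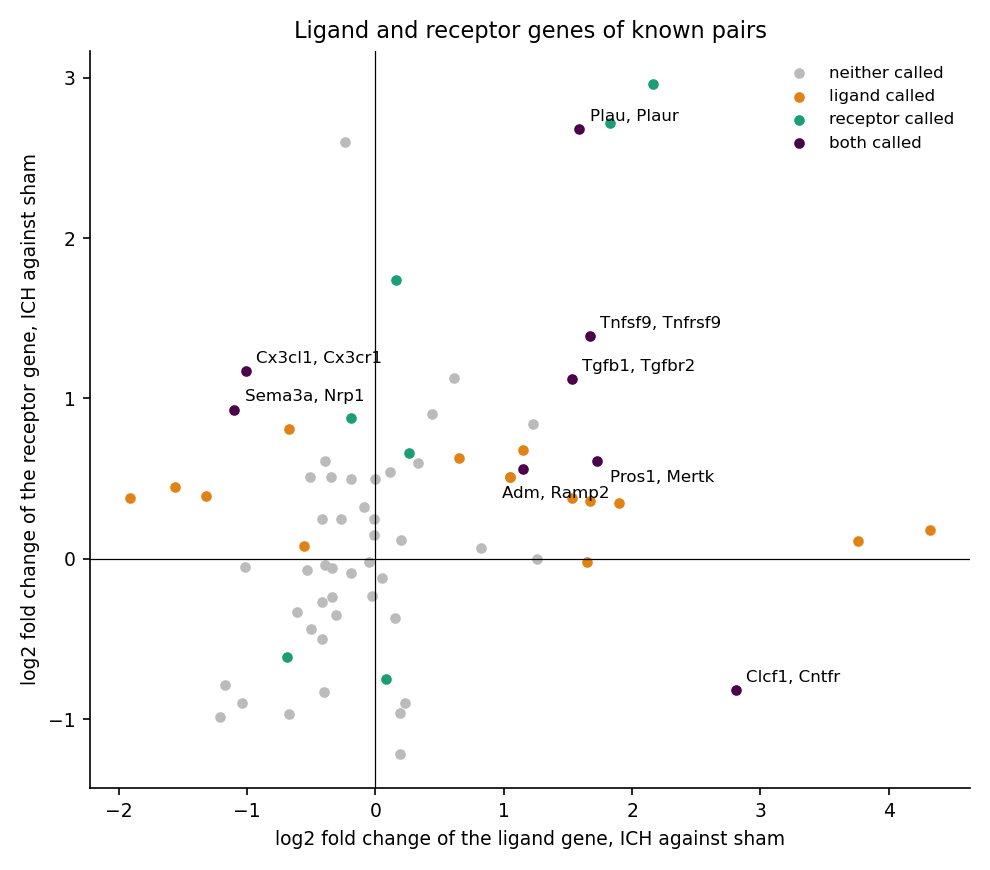
Log2 fold changes, ICH against sham, of the ligand gene (horizontal axis) and the receptor gene (vertical axis) of 72 pairs with both genes tested, coloured by which of the genes was called; the 8 pairs with both called are named. Of those, 5 lie in the upper right quadrant, where both rose, and Clcf1 with Cntfr lies at 2.81 and -0.82.

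Ion channel genes were lowered more often than the tested genes at large. Of 257 tested channel genes, 14 were raised (5.45%) and 39 lowered (15.2%), with a median log2 fold change of -0.37, and the split was 18 to 30 with library totals. Channels that set the firing of neurons and receptors of GABA held most of the lowered calls. Pan-neuronal markers moved in the same direction: their summed level was 5827 to 7182 CPM in sham and 4165 to 4686 CPM after ICH, 6 of 13 were called lowered, and none was at 0. The count of 6 became 2 or 3 on omission of ICH replicate 5, or of sham replicate 1, 2 or 3. Their part in the channel changes was not tested.

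Of 77 potassium channel genes, 2 were raised and 17 lowered, with a median of -0.64, and 10 were lowered without ICH replicate 3. Kcnd2, the pore subunit of a fast transient current in dendrites, read 124, 176, 219, 188 and 239 CPM in sham and 106, 80.1, 80.6, 99.8 and 111 CPM after ICH. No ICH library reached the sham range, although sham replicate 1, with its low striatal markers, was closest to it, and the log2 fold change was -0.99 ± 0.18, adjusted p = 0.00156. Kcnj12, an inward rectifier, read 19.8, 14.6, 15.1, 14.6 and 15.7 CPM in sham and 6.9, 6.82, 8.49, 6.86 and 10.1 CPM after ICH. Sham replicate 1 was the highest of all libraries, and the log2 fold change was -1.03 ± 0.19, adjusted p = 0.00137. Kcnab2, an auxiliary subunit, changed by -0.94 ± 0.21, adjusted p = 0.00563 and Kcnh2, the pore subunit of a delayed rectifier, by -0.89 ± 0.22, adjusted p = 0.0101. Kcnk3, an acid-sensitive leak channel, changed by -1.28 ± 0.30, adjusted p = 0.00777. The raised members were Kcnn4, a calcium-activated channel of blood and immune cells (2.27 ± 0.45, adjusted p = 0.00262), and the leak channel Kcnk6 (1.17 ± 0.24, adjusted p = 0.00297).

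Of 13 voltage-gated sodium channel genes none was raised and 4 were lowered, or 2 on omission of ICH replicate 2, or of sham replicate 3 or 4. Scn2b (ENSMUSG00000070304), a beta subunit that brings the channel to the cell surface, read 234, 305, 323, 330 and 569 CPM in sham and 155, 136, 95.3, 136 and 220 CPM after ICH. The groups did not overlap, with sham replicate 5 the highest, and the log2 fold change was -1.25 ± 0.24, adjusted p = 0.00222. Of 24 voltage-gated calcium channel genes 4 were lowered, 7 without ICH replicate 4 and 10 without both that library and sham replicate 1. The lowered members included Cacng4 and Cacng2, auxiliary subunits of AMPA receptors, which fell by 0.85 and 0.92 on the log2 scale (adjusted p = 0.00166 and 0.0033). Hcn2, a pacemaker channel, read 290, 282, 257, 242 and 300 CPM in sham and 143, 180, 209, 109 and 135 CPM after ICH, with no overlap and a log2 fold change of -0.82 ± 0.18, adjusted p = 0.00505. Of 19 GABA-A and glycine receptor genes 4 were lowered, or 2 without sham replicate 3 or 5. Of 20 ionotropic glutamate receptor genes, 2 were lowered, and 1 or none on omission of ICH replicate 1, 2 or 3, or of sham replicate 1, 3, 4 or 5.

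Raised channel genes included those opened by stretch, ATP or lysosomal signals. Piezo1, a channel opened by membrane stretch, read 6.29, 8.57, 6.66, 13.2 and 9.82 CPM in sham and 28.6, 17.3, 22.3, 26.4 and 22.1 CPM after ICH. Each ICH library exceeded each sham library, and the log2 fold change was 1.39 ± 0.24, adjusted p = 0.00106. Clic1, a chloride intracellular channel protein, read 24.5, 20.9, 12.5, 19.4 and 13.7 CPM in sham and 51.2, 89.7, 81.7, 61.8 and 47.7 CPM after ICH, again without overlap and with the log2 fold change 1.87 ± 0.23, adjusted p = 0.000103. Ano6, which exposes phosphatidylserine on the cell surface, rose by 1.15 ± 0.17, adjusted p = 0.000382. The ATP-gated channel genes P2rx7 and P2rx4 rose by 1.23 ± 0.24, adjusted p = 0.00222 and 0.81 ± 0.20, adjusted p = 0.0096. The lysosomal channel genes Tpcn2 and Mcoln2 rose by 1.49 ± 0.29, adjusted p = 0.00245 and 4.36 ± 0.77, adjusted p = 0.00107, where Mcoln2 read at most 0.247 CPM in sham and 0.303 to 4.54 CPM after ICH. Trpm7, which joins a channel to a kinase, rose by 0.60 ± 0.15, adjusted p = 0.0096. In the TRP, Piezo and mucolipin group as a whole, 5 of 23 were raised and 1 lowered, and 3 were raised on omission of ICH replicate 1 or 3, or of sham replicate 3 or 5.

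**Figure D4:**
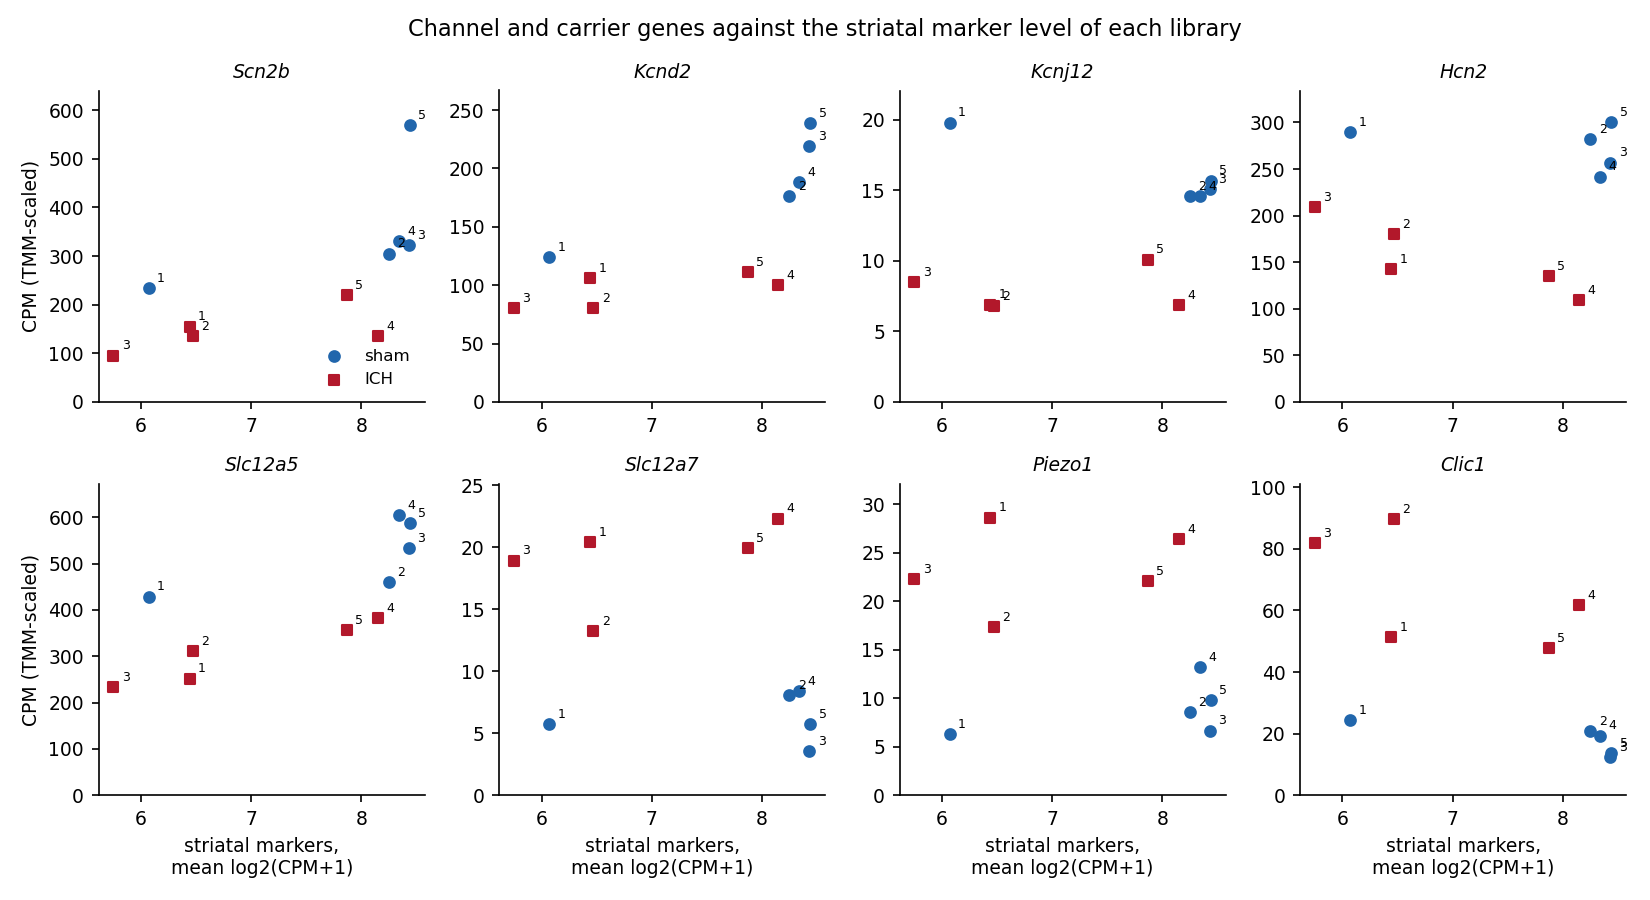
Expression of 8 channel and carrier genes in TMM-scaled CPM (vertical axes from 0) against the mean log2(CPM+1) of 16 striatal projection neuron markers in the same library (horizontal axes), 1 point per mouse with its replicate number, sham as blue circles and ICH as red squares. On the horizontal axis, sham replicate 1 (6.07) lies among the ICH libraries. ICH replicates 4 and 5 (8.15 and 7.87) lie near the other sham libraries (8.25 to 8.44). The 8 genes were picked among those whose ICH and sham values do not overlap, so the vertical separation was fixed by that choice. The part of striatal content in these changes was not tested.

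Carriers and pumps were called near the share of all genes, with both directions present. Of 290 tested transporter genes, 42 were raised (14.5%) and 19 lowered (6.55%), with a median of 0.01, or -0.03 under RLE scaling. The split was 38 to 27 under that scaling and 48 to 11 with library totals. Some genes that restore ion gradients in neurons fell, though their groups were mixed. Among pump subunits, 2 of 23 were raised and 3 lowered, and among calcium exchangers 1 of 8 was raised and 1 lowered. Of 24 cation-chloride, bicarbonate and proton exchangers, 1 was raised and 2 were lowered. Slc12a5, the potassium-chloride exporter that keeps chloride low in neurons, read 429, 460, 533, 604 and 588 CPM in sham and 252, 311, 234, 383 and 357 CPM after ICH. No library overlapped and the log2 fold change was -0.77 ± 0.17, adjusted p = 0.0058. A related exporter of other cells, Slc12a7, moved the other way. It read 5.73, 8.05, 3.59, 8.42 and 5.75 CPM in sham and 20.4, 13.2, 18.9, 22.3 and 19.9 CPM after ICH, with no overlap, and rose by 1.58 ± 0.24, adjusted p = 0.00039. Atp2b2, a calcium pump of the plasma membrane, changed by -0.98 ± 0.26, adjusted p = 0.0173 and the sodium-calcium exchanger Slc8a3 by -0.65 ± 0.17, adjusted p = 0.0141.

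Of 22 neurotransmitter carrier genes, 1 was raised and 6 lowered, or 3 lowered on omission of ICH replicate 3, or of sham replicate 3, 4 or 5. Slc6a11, an astrocytic GABA carrier, read 569, 322, 359, 311 and 449 CPM in sham and 185, 272, 130, 60 and 149 CPM after ICH. The lowest of its group was ICH replicate 4 and the highest ICH replicate 2, still below sham, and the log2 fold change was -1.34 ± 0.33, adjusted p = 0.0102 (-1.13, adjusted p = 0.0101 without ICH replicate 4). Slc17a8, a vesicular glutamate carrier, changed by -1.43 ± 0.35, adjusted p = 0.00996. Some amino acid and lactate carriers rose: 7 of 22 amino acid carrier genes were raised and 1 lowered, and 4 of 14 monocarboxylate carriers were raised and none lowered (1 under RLE scaling). Slc7a11, which imports cystine for glutathione, read 35.1, 25.1, 23.6, 38 and 42.7 CPM in sham and 120, 53.7, 68.3, 135 and 55.3 CPM after ICH. The groups did not overlap, ICH replicates 1 and 4 were highest, and the log2 fold change was 1.39 ± 0.26, adjusted p = 0.00178. Slc16a3, a lactate exporter, rose by 1.79 ± 0.29, adjusted p = 0.000552 and Slc1a5, a glutamine carrier, by 1.54 ± 0.25, adjusted p = 0.000664. The zinc and iron carrier gene Slc39a14 rose by 1.18 ± 0.18, adjusted p = 0.000392, and the zinc carrier gene Slc39a1 by 1.04 ± 0.14, adjusted p = 0.000213. Ucp2, an uncoupling protein of the inner mitochondrial membrane, read 111, 114, 71.5, 98.7 and 97 CPM in sham and 236, 276, 262, 173 and 262 CPM after ICH, with no overlap and a log2 fold change of 1.30 ± 0.19, adjusted p = 0.000311. Abca1, a cholesterol exporter, rose by 1.50 ± 0.21, adjusted p = 0.000228, and Slc2a9, a urate carrier, by 1.82 ± 0.27, adjusted p = 0.000311.

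Metabolic genes were raised in several pathways, though not in all those of lipids, and those lowered included enzymes of glutamate and branched-chain amino acids. Of 434 tested enzymes, 83 were raised (19.1%) and 28 lowered (6.45%), with a median log2 fold change of 0.09, and the split was 103 to 18 with library totals. Beside them, the summed microglial and astrocyte markers were higher and 6 of 13 pan-neuronal markers fell, at the levels given above, and their part in the enzyme and carrier changes was not tested. The pentose phosphate pathway, which supplies NADPH and ribose, had 4 of 10 genes raised and none lowered. On omission of ICH replicate 2, 3 or 5, or of sham replicate 3 or 4, the count was 2, and without sham replicate 5 it was 1. RLE scaling gave 2 raised. Pgd, phosphogluconate dehydrogenase, read 52.3, 46.3, 34.9, 40.6 and 34.7 CPM in sham and 64.1, 101, 93.9, 85 and 79.9 CPM after ICH, with no overlap and a log2 fold change of 1.02 ± 0.18, adjusted p = 0.00105. Purine and pyrimidine metabolism had 11 of 40 genes raised and none lowered. Upp1, which splits uridine, rose by 2.24 ± 0.36, adjusted p = 0.000568, Tk1, which salvages thymidine in dividing cells, by 2.12 ± 0.31, adjusted p = 0.000342, and Ampd3, an AMP deaminase, by 1.14 ± 0.15, adjusted p = 0.000176. Samhd1, which degrades deoxynucleotides, rose by 0.88 ± 0.15, adjusted p = 0.000723.

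Genes of sphingosine-1-phosphate, a lipid signal in vessels and immune cells, changed at several steps. Sphk1, the kinase that makes it, read 2.4, 1.26, 1.22, 1.25 and 0.755 CPM in sham and 3.19, 7.79, 6.02, 32.9 and 6.18 CPM after ICH. All ICH libraries were above all sham libraries, with ICH replicate 4 far above the rest, and the log2 fold change was 3.02 ± 0.56, adjusted p = 0.00178 (2.07, adjusted p = 0.000784 without that library). Sgpl1, the lyase that breaks it down, read 59.9, 56.6, 41.7, 53.2 and 49.9 CPM in sham and 140, 125, 150, 144 and 113 CPM after ICH, without overlap, and rose by 1.36 ± 0.16, adjusted p = 6.46e-05. Sgpp2, a phosphatase that returns it to sphingosine, read 37.6, 36.2, 40.5, 35.7 and 30.7 CPM in sham and 17.5, 17.8, 23.9, 13.8 and 18.5 CPM after ICH. Here each ICH library was below each sham library, and the log2 fold change was -0.98 ± 0.14, adjusted p = 0.0003. S1pr3 (ENSMUSG00000067586), a receptor of the lipid that is also on the astrocyte marker list, read 14.7, 15.7, 9.67, 15.5 and 9.7 CPM in sham and 72.5, 65.2, 102, 62.1 and 33.7 CPM after ICH. Its log2 fold change was 2.36 ± 0.27, adjusted p = 5.11e-05, with no overlap, and S1pr2, another receptor, rose by 1.30 ± 0.25, adjusted p = 0.00213. In sphingolipid metabolism as a whole, 6 of 34 genes were raised and 5 lowered, or 8 and 2 with library totals. The lowered count was 1 to 3 on omission of ICH replicate 2, 3, 4 or 5, or of sham replicate 1, 3, 4 or 5. Asah1, a lysosomal enzyme that releases sphingosine, rose by 0.62 ± 0.14, adjusted p = 0.00616.

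The count of raised fatty acid oxidation genes varied with libraries and scaling. With all libraries 7 of 24 were raised, against 13 without ICH replicate 4, 12 without both that library and sham replicate 1, and 13 with all libraries scaled by library totals, and none was lowered. Cpt1a, which admits fatty acids to mitochondria, read 43.9, 48.5, 35.9, 57.2 and 61.4 CPM in sham and 102, 79.1, 89.7, 57 and 97.1 CPM after ICH. ICH replicate 4 was the lowest of its group and overlapped with sham, and the log2 fold change was 0.78 ± 0.19, adjusted p = 0.00947, against 0.89, adjusted p = 0.00238 without it. Decr1 was called only without it (0.49 ± 0.18, adjusted p = 0.0625 with all libraries, 0.64, adjusted p = 0.00392 without it). Of 21 genes of fatty acid synthesis and elongation, 1 was raised and 3 lowered, with a median of -0.26. RLE scaling gave 4 lowered and library totals 1. On omission of ICH replicate 2 or 3, or of sham replicate 2, 3 or 4, 1 was lowered. Of 28 genes of the tricarboxylic acid cycle list, 2 were raised (5 without ICH replicate 4, none on omission of ICH replicate 5, or of sham replicate 5) and 4 lowered. The split was 1 to 6 with RLE scaling and 4 to 2 with library totals, and the lowered count was 1 or 2 when ICH replicate 3, any of sham replicates 1 to 3, or both sham replicate 1 and ICH replicate 4 were left out. Of 18 enzymes of branched-chain amino acids, glutamine and glutamate, 1 was raised and 4 lowered. Got1 and Got2, which link aspartate and glutamate, changed by -0.71 ± 0.14, adjusted p = 0.0023 and -0.56 ± 0.14, adjusted p = 0.0101. Gad1, which makes GABA, read 545, 648, 675, 553 and 576 CPM in sham and 313, 280, 224, 443 and 391 CPM after ICH, with no overlap and a log2 fold change of -0.86 ± 0.21, adjusted p = 0.0101. Nat8l (ENSMUSG00000048142), which makes the neuronal metabolite N-acetylaspartate, read 287, 265, 266, 296 and 354 CPM in sham and 147, 141, 127, 165 and 151 CPM after ICH. The groups did not overlap, and the log2 fold change was -1.01 ± 0.15, adjusted p = 0.0004. Nmnat2, a source of axonal NAD, changed by -0.62 ± 0.15, adjusted p = 0.0104, whereas Bst1 and Cd38, which consume NAD, rose by 4.09 ± 0.66, adjusted p = 0.000671 and 1.52 ± 0.30, adjusted p = 0.00262.

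Other enzymes that rose were spread over lipid, matrix and detoxifying reactions. Dhrs1, a short-chain dehydrogenase, read 99.6, 92.4, 69, 79.7 and 56.2 CPM in sham and 295, 246, 310, 308 and 320 CPM after ICH. The groups were far apart, and the log2 fold change was 1.90 ± 0.17, adjusted p = 1.12e-05. Has2, which makes hyaluronan, rose by 2.59 ± 0.53, adjusted p = 0.00306. Prdx6, a peroxiredoxin with phospholipase activity, rose by 1.51 ± 0.16, adjusted p = 2.97e-05. The leukotriene cofactor gene Alox5ap rose by 2.25 ± 0.22, adjusted p = 1.42e-05, and the galactosyltransferase gene B4galt1 by 1.79 ± 0.17, adjusted p = 1.42e-05. Cyp1b1 and Cyp7b1, oxidases of steroids and oxysterols, rose by 2.76 ± 0.55, adjusted p = 0.00311 and 0.91 ± 0.15, adjusted p = 0.000682. Sat1, which acetylates polyamines, rose by 1.14 ± 0.18, adjusted p = 0.000518. Pla2g4a, cytosolic phospholipase A2, rose by 1.19 ± 0.25, adjusted p = 0.00374, whereas Pld5, of the phospholipase D family, fell (-1.02 ± 0.21, adjusted p = 0.00286).

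**Figure D5:**
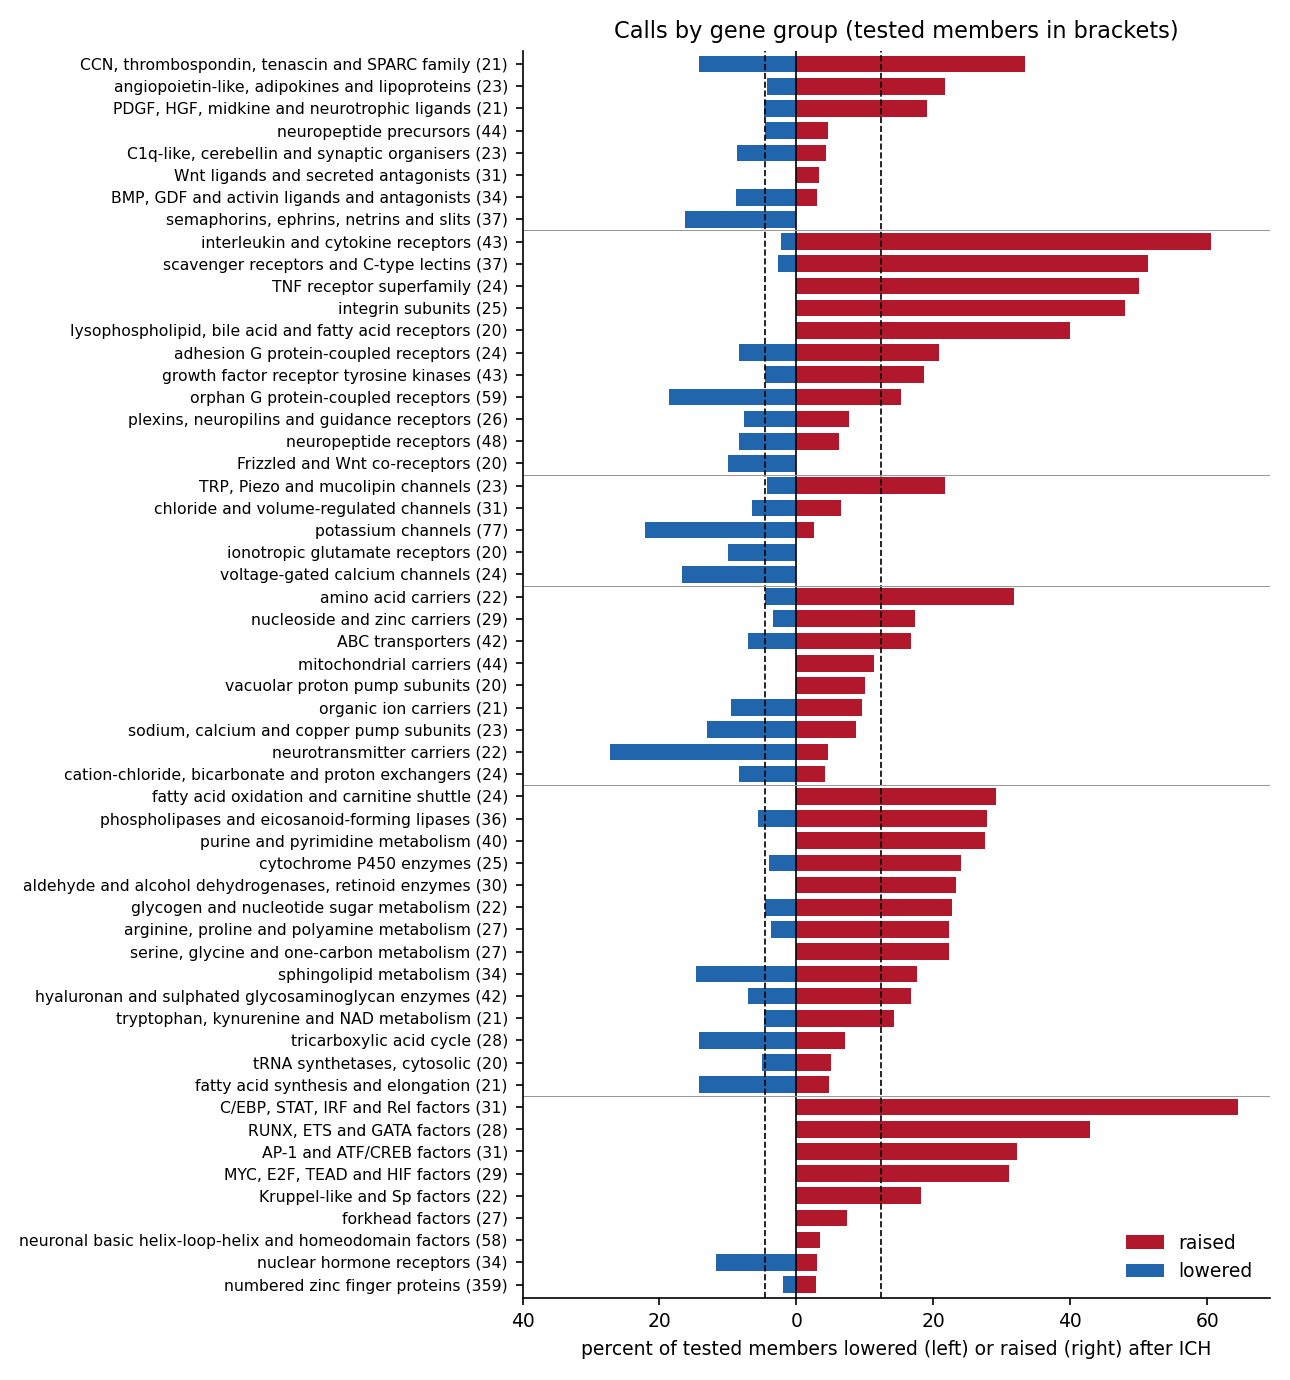
Percent of tested members raised (red, right) and lowered (blue, left) after ICH for the 56 gene groups with at least 20 tested members, ordered by class from ligands at the top through receptors, channels, transporters and enzymes to transcription factors; the number tested is in brackets. Dashed lines mark the percents over all tested genes (12.4% raised, 4.58% lowered), which C/EBP, STAT, IRF and Rel factors (64.5% raised) and neurotransmitter carriers (27.3% lowered) exceed. All members are protein-coding genes, for which the percents were 14% raised and 5.13% lowered.

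Transcription factor genes were raised in a few families and gave few calls in most. Of 676 tested, 75 were raised (11.1%) and 16 lowered (2.37%), with a median of 0.01, or -0.02 under RLE scaling. The split was 70 to 24 under that scaling and 83 to 9 with library totals. C/EBP, STAT, IRF and Rel factors, which carry cytokine and innate immune signals, had 20 of 31 genes raised and none lowered, and 16 raised without ICH replicate 4. RUNX, ETS and GATA factors, many of them blood and vessel regulators, had 12 of 28 raised and none lowered. AP-1 and ATF or CREB factors had 10 of 31 raised, and MYC, E2F, TEAD and HIF factors 9 of 29, with none lowered in either (for the latter, RLE scaling gave 8 raised and 2 lowered). By contrast, 10 of 359 numbered zinc finger genes were raised and 7 lowered (RLE scaling gave 8 and 9, library totals 11 and 4), with 1 to 4 lowered on omission of ICH replicate 2 or 3, or of sham replicate 2, 3, 4 or 5. Of 58 neuronal basic helix-loop-helix and homeodomain genes, 2 were raised and none lowered, although 8 were lowered without both sham replicate 1 and ICH replicate 4. Marker levels of microglia and macrophages, given above, rose in the same libraries, and their part was not tested.

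Elf4, an ETS factor of blood cells, read 3.39, 4.91, 3.14, 5.39 and 2.67 CPM in sham and 17.6, 11.6, 15.8, 22.8 and 14.1 CPM after ICH. No library overlapped, and the log2 fold change was 2.07 ± 0.25, adjusted p = 7.06e-05. Fli1, Elk3 and Etv6, other ETS factors, rose by 1.36 ± 0.19, adjusted p = 0.00027, 1.37 ± 0.19, adjusted p = 0.000242 and 0.89 ± 0.13, adjusted p = 0.000361, and Ikzf1, a zinc finger regulator of blood lineages, by 1.21 ± 0.18, adjusted p = 0.000313. Cebpd, a C/EBP factor of the acute phase, rose by 2.04 ± 0.32, adjusted p = 0.000502 and Bcl3, an atypical inhibitor of NF-kB, by 2.61 ± 0.54, adjusted p = 0.00373. Stat3 read 76.6, 80.7, 66.6, 78.1 and 65.9 CPM in sham and 137, 133, 142, 293 and 151 CPM after ICH. All ICH libraries were above sham, with ICH replicate 4 the highest, and the log2 fold change was 1.22 ± 0.20, adjusted p = 0.000629, or 0.93, adjusted p = 0.000106 without it. Myc, a driver of growth and proliferation, read 3.64, 5.37, 5.96, 5.99 and 3.83 CPM in sham and 13.9, 14.9, 12.2, 13.3 and 14 CPM after ICH. The ICH libraries lay close together and above all sham libraries, and the log2 fold change was 1.46 ± 0.19, adjusted p = 0.000135.

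Factors of proliferation, matrix and stress signals followed different libraries. Foxm1, a mitotic regulator, read 5.73, 3.94, 4.74, 4.28 and 3.14 CPM in sham and 26.5, 20.9, 33.7, 4.45 and 17.9 CPM after ICH. The value of ICH replicate 4 was within the sham range, and the log2 fold change was 2.24 ± 0.39, adjusted p = 0.00109, against 2.50, adjusted p = 1.86e-05 without it. E2f8, a regulator of the cell cycle, also read low in ICH replicate 4 (2.10 ± 0.47, adjusted p = 0.00577, and 2.37, adjusted p = 0.000203 without it). Tead1, the DNA-binding partner of YAP, rose by 1.07 ± 0.20, adjusted p = 0.00178, and Wwtr1, which encodes the YAP relative TAZ, by 0.90 ± 0.18, adjusted p = 0.00262. Jun rose by 0.93 ± 0.15, adjusted p = 0.000673 and Fos by 1.07 ± 0.20, adjusted p = 0.00191. Klf6, a zinc finger factor induced by injury, rose by 0.88 ± 0.16, adjusted p = 0.00112. Zfp36, which destabilises cytokine mRNAs, read 11, 9.65, 8.84, 7.43 and 4.71 CPM in sham and 13, 21.7, 26.1, 96.8 and 24.4 CPM after ICH, a log2 fold change of 2.13 ± 0.44, adjusted p = 0.00397, or 1.35, adjusted p = 0.00129 without ICH replicate 4.

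Few factor genes fell. Scrt1, a neuronal repressor, read 146, 156, 137, 150 and 151 CPM in sham and 70.3, 60.6, 64.8, 77.1 and 83.4 CPM after ICH. The sham libraries lay close together, every ICH library was lower, and the log2 fold change was -1.05 ± 0.16, adjusted p = 0.000378. Mafa, a large Maf factor, read 1.73, 5.77, 4.8, 7.5 and 6.27 CPM in sham and 0.128, 0.966, 0.059, 1.06 and 0.848 CPM after ICH. Its ICH libraries were all below each sham library, and its log2 fold change was -3.08 ± 0.59, adjusted p = 0.00196, the largest decrease among the genes named here. Smad7, an inhibitor of TGF-beta signalling, changed by -0.73 ± 0.16, adjusted p = 0.0058 and Id4, an inhibitor of helix-loop-helix factors, by -0.82 ± 0.22, adjusted p = 0.0158. None of 9 EGR and NR4A genes, which neuronal activity induces, was called with all libraries, and 3 were lowered without ICH replicate 4, 2 without sham replicate 1 and 6 without both. Nr4a1 read 25.2, 54.2, 50.9, 52.3 and 64.8 CPM in sham and 17.3, 14.9, 12.2, 53.6 and 26.4 CPM after ICH. ICH replicate 4 was in the range of the 4 higher sham libraries, and the adjusted p moved from 0.0611 to 0.000971 on its omission and to 0.0273 on the omission of sham replicate 1. Egr1, with 267 CPM in ICH replicate 4 and 50.7 to 79.3 CPM in the other ICH libraries, went from -0.55 ± 0.46, adjusted p = 0.441 to -1.28, adjusted p = 0.0136.

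Among genes outside these groups, the lowered ones with the smallest p values or largest fold changes included genes known from neurons. Arc, an effector of synaptic plasticity, read 31.3, 70.6, 65.9, 78.2 and 99.7 CPM in sham and 21.5, 19.4, 12, 21 and 24.7 CPM after ICH. Sham replicate 1 was the lowest sham library and still above the ICH libraries, and the log2 fold change was -1.81 ± 0.30, adjusted p = 0.000852. Rgs4, which shortens G protein signals, changed by -1.39 ± 0.23, adjusted p = 0.000719, Cplx3, a complexin of transmitter release, by -1.78 ± 0.36, adjusted p = 0.00274 and Syt2, a calcium sensor of release, by -1.32 ± 0.21, adjusted p = 0.000518. Diras1, a small GTPase, read 128, 124, 106, 101 and 111 CPM in sham and 50, 63.3, 45.7, 51.6 and 66 CPM after ICH. No library overlapped and the log2 fold change was -1.04 ± 0.13, adjusted p = 0.00011. Lynx1, which modulates nicotinic receptors, changed by -0.93 ± 0.14, adjusted p = 0.000319. Kif5a, a motor of axonal transport, read 2910, 3441, 3055, 4003 and 2584 CPM in sham and 1885, 1420, 845, 1315 and 1944 CPM after ICH, with no overlap and a log2 fold change of -1.11 ± 0.23, adjusted p = 0.00309. Coch, a secreted matrix protein, changed by -1.38 ± 0.28, adjusted p = 0.00344. Raised genes outside the groups included S100a11, a calcium-binding protein (3.15 ± 0.30, adjusted p = 1.42e-05), Mxra8, a cell adhesion protein (1.79 ± 0.17, adjusted p = 1.42e-05), and Sla, an adaptor of immune receptors (1.68 ± 0.16, adjusted p = 1.42e-05).

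A set of large increases rested on ICH replicate 4. Saa3, a serum amyloid gene, read 0.37, 0.457, 0.192, 0 and 0 CPM in sham and 8.11, 11.1, 15.8, 1983 and 7.51 CPM after ICH. The other 4 ICH libraries were all above sham, and the log2 fold change was 10.88 ± 2.11, adjusted p = 0.00289 with ICH replicate 4 and 5.63, adjusted p = 1.86e-05 without it. F10 (5.86 ± 1.35, adjusted p = 0.00792, and 2.51, adjusted p = 0.00878 without it), Nos2 (4.77 ± 1.14, adjusted p = 0.00984, and 1.66, adjusted p = 0.00777) and Ptx3 (4.96 ± 0.85, adjusted p = 0.00115, and 3.24, adjusted p = 3.16e-05) also stayed called at smaller values. These genes encode coagulation factor X, inducible nitric oxide synthase and pentraxin 3. Acod1, which makes itaconate in activated myeloid cells, read 0.802, 0.229, 0, 0.395 and 0.407 CPM in sham and 0.767, 0.785, 1.06, 174 and 0.364 CPM after ICH. Outside ICH replicate 4 its ICH values overlapped with sham, and the call was lost (6.56 ± 1.74, adjusted p = 0.0185, against 1.01, adjusted p = 0.274). Hp, haptoglobin, lost its call in the same way (5.56 ± 1.45, adjusted p = 0.0171, against 1.29, adjusted p = 0.111). Neutrophil markers were 2230 CPM in this library, as given above; Ly6g was at 0 in the other 4 ICH libraries and no marker of that list was at 0 over all 5. The part of these cells in the increases was not tested.

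Other genes were called only without this library. Gpr34, a microglial lysophosphatidylserine receptor, read 22.6, 26.4, 23.6, 21.8 and 24.1 CPM in sham and 59.1, 54.4, 54.1, 4.95 and 31.6 CPM after ICH. ICH replicate 4 was below every sham library and the other 4 were above them all, and the adjusted p went from 0.212 to 0.00114. Ednrb, an endothelin receptor, went from 0.51 ± 0.23, adjusted p = 0.137 to 0.71, adjusted p = 0.00269, Cand2, a regulator of cullin ubiquitin ligases, from 0.79 ± 0.31, adjusted p = 0.0857 to 1.04, adjusted p = 0.000857, and Sulf2, which edits heparan sulphate, from 0.49 ± 0.19, adjusted p = 0.0897 to 0.65, adjusted p = 0.0033. Lowered genes of this kind included Them6, from -0.80 ± 0.28, adjusted p = 0.0605 to -1.17, adjusted p = 0.00136, and the histone demethylase Kdm4b, from -0.53 ± 0.24, adjusted p = 0.143 to -0.82, adjusted p = 0.00842. In these, ICH replicate 4 read within or above the sham range, at 74.5 CPM for Them6 and 106 CPM for Kdm4b.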

How the data were processed

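The authors deposited 1 table of raw counts per gene for 15 mice, with no normalization, and these counts were the only input. Per the labels' protocols, total RNA was extracted with Trizol and polyadenylated RNA was captured for sequencing. Per the submitters' processing notes, HISAT2 2.0.5, edgeR 3.22.5 and the genome build mm10 were used, without their roles. The counting program, its annotation and its strand setting are not named in those sources, so reads of overlapping genes or near-identical copies may be shared; 41 of the 184 genes named here overlap another tested gene.

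Genes were filtered with edgeR's filterByExpr, scaled by TMM and tested with edgeR 4.0.16 (R 4.3.3) by the robust quasi-likelihood F-test, with 1 coefficient per group over all 15 libraries and the contrast ICH minus sham. P-values were adjusted by Benjamini-Hochberg over all tested genes, with a threshold of 0.05. The ± after a log2 fold change is an approximate SE, the fold change divided by the square root of F. CPM values are TMM-scaled, except marker sums, which describe each library as a whole. Nothing in the labels says that libraries share a culture or litter, and p-values measure the spread between these mice. The test was checked on simulated data. Gene names and positions came from GENCODE M21, and start regions from RefSeq.

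Genes named were up to 6 called members per group and direction with the smallest p, the most abundant members of groups with fewer than 2 calls, the leading genes outside the marker lists by fold, p or CPM, those whose call depended on ICH replicate 4, and the members of called pairs. Some genes that this rule named are not reported here. The groups and members were chosen with earlier results of these data known, so their counts are descriptions and no group was tested. Alternatives were RLE size factors, library totals, other count filters, DESeq2 1.42.0, limma-voom (limma 3.58.1), fewer libraries, a replicate block, a stricter threshold and each library left out.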

Additional observations from a re-analysis of the deposited data

Results flagged for a closer look

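A library was listed here when its gap to the nearest other library of its group exceeded 0.71 of the group's range (Dixon's 95% value for 5 samples). Of 368 groups of 5 values from the named genes, 36 met this. Chance gives about 1 in 20 for genes chosen without regard to their values, but some of these genes were named because their call depended on ICH replicate 4, so the count cannot be set against that share. ICH replicate 4 was the high library for 12 genes and the low one for 5, and sham replicate 1 was high for 2 and low for 6.

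ICH replicate 4 stood high for Saa3 (1983 CPM), Hp (195 CPM), Acod1 (174 CPM), Ptx3 (123 CPM), F10 (94.3 CPM), Nos2 (85 CPM), Hcar2 (62.5 CPM) and Lif (37.7 CPM). These genes encode acute-phase, coagulation and inflammatory products. It also stood high for Tnfrsf1b (167 CPM), Il4ra (153 CPM), Stat3 (293 CPM) and Egr1 (267 CPM), and its neutrophil markers averaged 4.45 on the log2(CPM + 1) scale. The same library stood low for the microglial receptor genes Cx3cr1 (51 CPM) and Gpr34 (4.95 CPM), and for Ednrb (58.7 CPM), Unc5b (11.4 CPM) and Cand2 (2.12 CPM).

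Sham replicate 1 stood low for the striatal markers (6.07 on the log2(CPM + 1) scale) and for Drd2 (38 CPM), Cnr1 (79.3 CPM), Rgs4 (279 CPM), Nr4a1 (25.2 CPM), Cacng4 (92 CPM) and Kdm4b (55.9 CPM). It stood high for Jun (65.4 CPM) and Kcnj12 (19.8 CPM). Sham replicate 5 stood high for Kcnab2 (472 CPM), Got2 (293 CPM), Cand2 (5.93 CPM) and Hp (2.61 CPM) and low for Cacng2 (38.3 CPM). Sham replicate 3 stood low for Glipr2 (5.96 CPM) and Elk3 (9.09 CPM). ICH replicate 3 stood low for Got2 (123 CPM) and Bmper (3.72 CPM) and high for Nrg3 (13.8 CPM), and ICH replicate 5 stood low for Kcnn4 (1.03 CPM).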

How the results depend on the processing

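The counts of called genes kept within 1.5 times of the values with all libraries under RLE size factors (3135 called), both other count filters, limma-voom, a fit of the 10 libraries alone (2130) and protein-coding genes only. At an adjusted p under 0.01, 1488 genes were called, 1275 raised and 213 lowered, and 68 were lowered at least 2-fold. DESeq2 called 1556 genes lowered, 267 of them at least 2-fold. With library totals, 532 were lowered, 87 of them at least 2-fold. Without both sham replicate 1 and ICH replicate 4, an alternative chosen after seeing the data, 399 were lowered at least 2-fold. Leaving out single libraries gave 2127 to 3270 called genes, 1623 to 2326 raised, 496 to 944 lowered, 1287 to 1702 called at least 2-fold, 1162 to 1466 raised at least 2-fold and 109 to 236 lowered at least 2-fold, and the cause was not tested. The lowest of these counts came without sham replicate 3 or ICH replicate 3, the highest without ICH replicate 4 or sham replicate 1. With the replicate number as a replicate block, 1592 genes were called, 1158 raised and 434 lowered, and 925 were raised at least 2-fold. Same-numbered libraries correlated at -0.164, -0.05, -0.024, 0.202 and 0.125 in their deviations from the group means, so the numbers were not taken to pair the mice. Of the 184 named genes, 173 were called, and 161 of the called genes stayed called in every single omission. No named gene changed sign under any alternative that gave it an adjusted p. Some alternatives, DESeq2 among them, gave none for a few genes. The call was lost for 12 of the named genes with limma-voom, 10 in the fit of 10 libraries and 20 with the block. Genes near 1 CPM, such as Mcoln2 and Mafa, rest on few counts, and their fold changes are less firm.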
